A study of Mus musculus with 8 samples.

Results

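The Notch pathway was followed through 10 named genes: the ligands Dll1, Dll4, Jag1 and Jag2, the receptors Notch1, Notch2, Notch3 and Notch4, and the target genes Hes1 and Nrarp. They were taken as a list of names, with earlier results of these data known, and each was matched by its Ensembl identifier to a GENCODE M21 symbol among the 54837 genes of the count table. All 10 passed the filter on low counts, as did 15192 genes in all. The RNA came from mammary basal cells of the mouse, which form the outer layer of the ductal epithelium, sorted by cell cycle phase. G0 cells rest and have left the cycle, and G1 cells are in the growth phase that precedes DNA synthesis. The 8 libraries were made in 4 runs, with both phases in each run, so each group had 4 libraries, and both groups came from untreated mice of the strain given as C57BL/B6. For genotype beyond the strain, age, sort markers and the number of animals behind a run, nothing is given in the sources used here.

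Notch signalling passes between cells that touch. A ligand of the Delta-like or Jagged family on one cell binds a receptor on its neighbour, the receptor is cut by an ADAM protease and then by gamma-secretase, and its intracellular part enters the nucleus, joins the DNA-binding protein RBPJ and Mastermind coactivators, and switches on targets such as the Hes and Hey repressors and Nrarp. In the mammary gland the pathway is known for its part in the choice between basal and luminal fate, with ligands in the basal layer. Dll4 and Notch4 are best known from endothelial cells, where they act in vessel sprouting and arterial identity, and they are called the vascular members here, with the other 8 as the comparison.

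The libraries held 5868728 to 15014104 counts. The smallest, G0 of run 4, stood apart with 39094 genes detected, where the other 7 had 20836 to 26614. Levels are given as CPM (counts scaled to library size, with TMM factors). Markers of basal cells, 15 genes such as Krt5, Krt14, Acta2 and Cnn1, summed to between 24749.2 and 32300.5 CPM in the G0 libraries. In the G1 libraries the sum lay between 34043.4 and 38075.3 CPM, with no overlap. Acta2 alone ranged from 5855.1 to 9014.5 CPM over the G0 libraries and from 10512.3 to 15397.6 CPM over the G1 libraries. The list did not rise as a whole, since 3 of the 15 had negative fold changes within runs and the median log2 fold change was 0.09. Whether the G1 libraries held more basal cells was not tested. A list of 11 luminal progenitor markers, 9 of them detected, summed to between 1637.7 and 2759.3 CPM, and 12 fibroblast markers to between 261.4 and 1005.8 CPM. Libraries of the same run deviated from their group means together, so the comparison of G1 with G0 was read within runs, from edgeR's quasi-likelihood fit with the run as a block, beside the fit on phase alone.

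None of the 10 genes passed an adjusted p of 0.05 in either fit. With phase alone that held for all 15192 genes tested, of which 0% were called and 425 had an unadjusted p under 0.05. With the run as a block, 0.764% of all genes were called lower in G1 and 0.481% higher, and the adjusted p-values of the 10 Notch genes ran from 0.109 for Nrarp to 0.983 for Notch3. Their values leaned to one side nonetheless: Nrarp, Notch4, Notch2 and Jag1 were lower in G1 in all 4 runs, 4 of 10 genes, against 9.44% of all genes tested. No Notch gene was higher in all 4 runs, against 11.3% of all genes. For Nrarp and Notch4 every G1 library lay below every G0 library, a pattern seen in 1.17% of all genes, and for none of the 10 did every G1 library lie above every G0 library, as for 0.829% of all genes. The median log2 fold change of the 10 within runs was -0.37, against 0.01 over all genes tested.

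**Figure D1:**
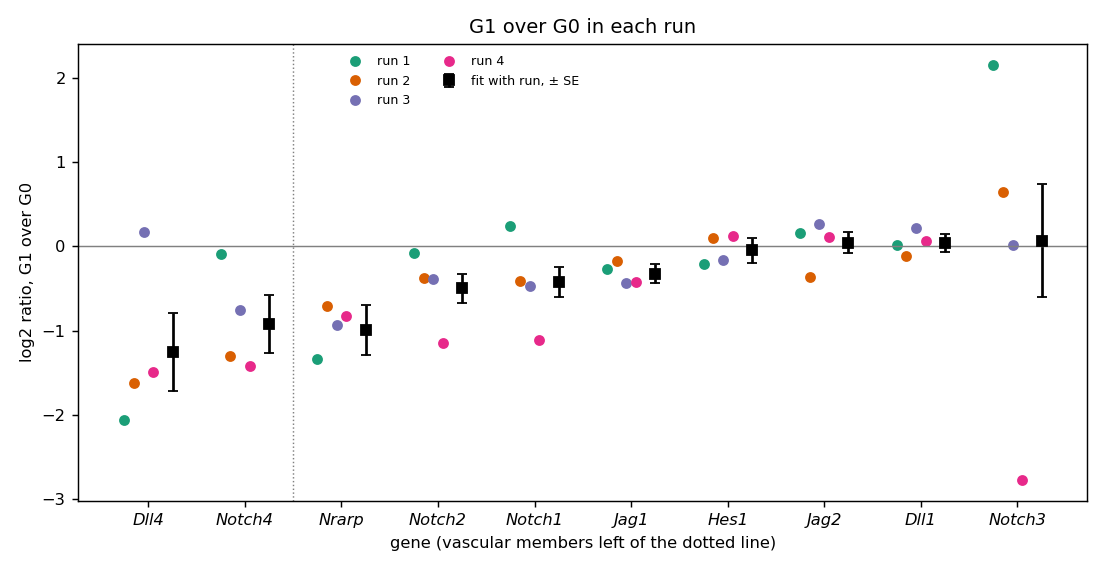
Log2 ratio of G1 over G0 in each of the 4 runs (coloured points, prior count of 2) and the fitted log2 fold change with its SE from edgeR's fit with the run as a block (black squares), by gene, vascular members on the left. All 4 points lie below 0 for Notch4, Nrarp, Notch2 and Jag1, and those of Notch3 range from 2.15 in run 1 to -2.77 in run 4.

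Per kilobase of exon, which allows levels of different genes to be set side by side, Dll1, Jag1, Jag2 and Hes1 stood far above the receptors, and Dll4 did not. Dll1 had a median of 82.2 CPM per kb over the 8 libraries and was above Jag1 in 8 of 8. Jag1, with a median of 22.6 and a range of 16.5 to 31.1 CPM per kb, and Jag2, with a range of 15.3 to 26.5, did not separate: Jag1 was the higher of the pair in 5 libraries. Hes1 followed at 14.4 CPM per kb and lay above Notch2 in 8 of 8 libraries. Notch2 at 1.87, Notch1 at 1.67 and Nrarp at 1.65 CPM per kb formed a middle group. Notch1 exceeded Nrarp in 4 of 8 libraries, so that pair was not ordered, while Nrarp was above Dll4 in 8 of 8. The lowest levels were those of Dll4 at 0.685, Notch4 at 0.333 and Notch3 at 0.29 CPM per kb, and no neighbours in that trio were ordered in more than 5 libraries. The order is a description of levels over both phases, with no test, and part of it turns on the length used. With the length of the longest transcript, Notch1 had a median of 2.51 CPM per kb and stood above Notch2 at 1.92, and Jag2 at 30.0 stood above Jag1 at 23.5.

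**Figure D2:**
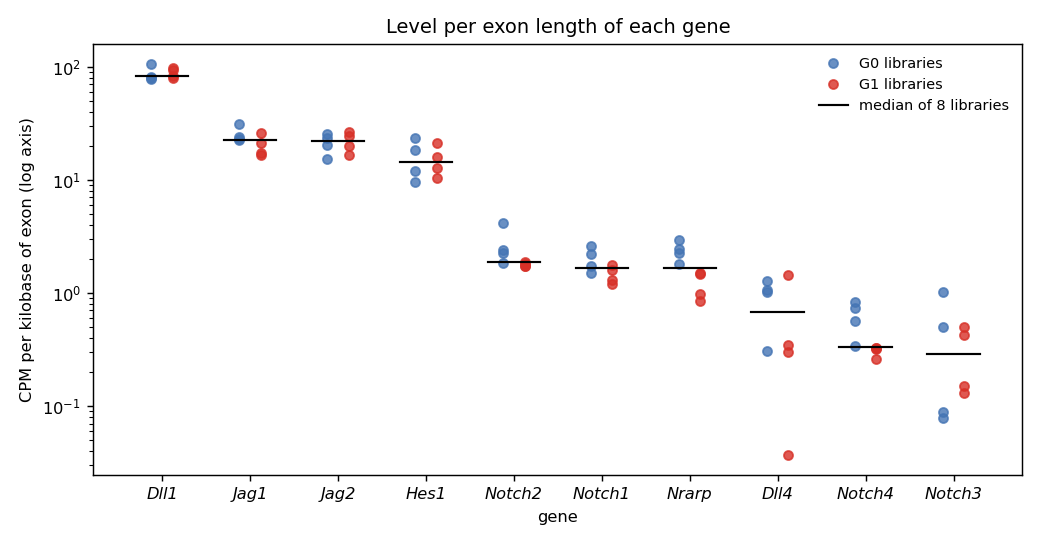
Level of each gene in CPM per kilobase of exon, on a log axis, in the G0 and G1 libraries (points), ordered by the median of the 8 libraries. Dll1 tops the order at a median of 82.2 CPM per kb, and Dll4, Notch4 and Notch3 lie at the bottom with overlapping ranges.

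With the exon union as length, Dll1 made up the largest share of the summed ligand level per kb in every library, from 58.8% to 71.1%. Its share was 64.7% ± 4.11 in G0 and 67.7% ± 5.0 in G1 (SD, n = 4). Jag1 held 18.9% ± 3.39 in G0 and 15.3% ± 3.13 in G1, and Dll4 never exceeded 1.05%. The summed ligand level was 133.6 ± 16.7 CPM per kb in G0 and 131.3 ± 9.72 in G1, a difference smaller than the SD of either group. Among the receptors, Notch2 held 40.9% to 54.1% of the sum and Notch1 30.5% to 41.6% by this length, a pair whose order turned with the longest transcript. The receptor sum was 5.72 ± 2.04 CPM per kb in G0 and 3.88 ± 0.445 in G1.

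Dll1 (ENSMUSG00000014773, chromosome 17 from 15367354 to 15376872, minus strand on GRCm38), a Delta-like ligand made by mammary basal cells, was the most abundant of the 10 genes. Its G0 libraries of runs 1 to 4 had 331.8, 449.9, 341.4 and 336.1 CPM, and its G1 libraries had 336.5, 414.7, 395.8 and 352.2 CPM. The groups overlapped, with run 2 high in both. Within runs the log2 fold change was 0.05 ± 0.11 (SE), with an adjusted p of 0.911 (edgeR). A gene on the opposite strand, A930024N18Rik, shares 867 bases of exon with Dll1 and had 6765 counts in all against 31792 for Dll1. Its own log2 fold change was -0.09, with an adjusted p of 0.833.

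Jag1 (ENSMUSG00000027276, chromosome 2 from 137081456 to 137116644, minus strand) is a Jagged ligand. It had 181.3, 138.2, 130.6 and 133.1 CPM in the G0 libraries of runs 1 to 4 and 151.2, 122.3, 96.4 and 99.6 CPM in the G1 libraries. Each run had less Jag1 in G1, yet the groups overlapped because run 1 was high in both phases. The ratios of G1 to G0 were 0.834, 0.885, 0.738 and 0.749, and each one's 95% interval, which covers counting error only, lay below 1. Its log2 fold change within runs was -0.32 ± 0.11, with an unadjusted p of 0.00835 in edgeR's fit and an adjusted p of 0.196. Jag2 (ENSMUSG00000002799, chromosome 12 from 112907819 to 112929776, minus strand), the other Jagged ligand, showed no such lean. It had 164.6, 177.4, 141.5 and 106.5 CPM in G0 and 184.4, 138.1, 170.8 and 115.0 CPM in G1, lower in run 2 and higher in the other 3 runs. Its log2 fold change was 0.05 ± 0.12, with an adjusted p of 0.924 (edgeR).

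**Figure D3:**
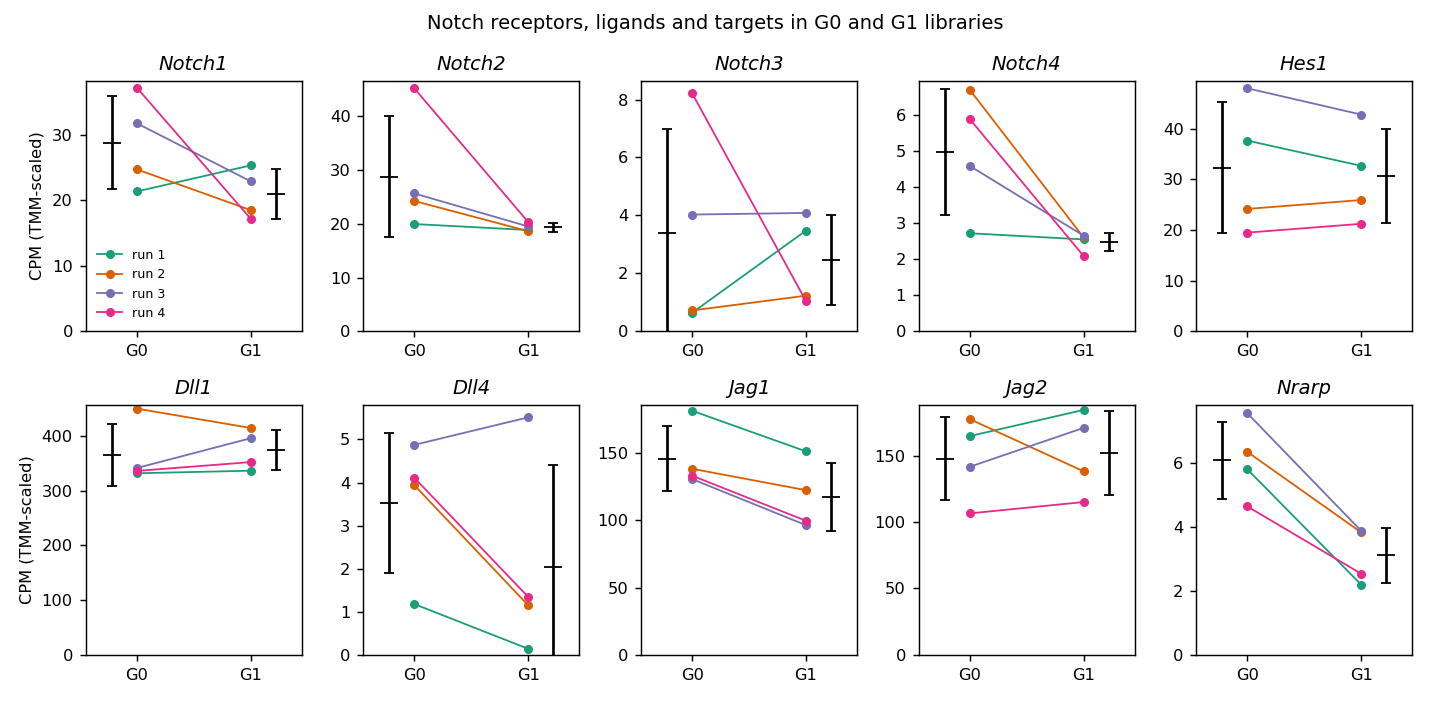
CPM of each of the 10 genes in the G0 and G1 libraries of runs 1 to 4, with each group's mean and SD (n = 4). Each panel has its own axis, which starts at 0 and cuts the lower error bar where the SD exceeds the mean, as for Notch3 in G0 and Dll4 in G1. Only Notch4 and Nrarp have all 4 G1 points below all 4 G0 points.

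Notch1 and Notch2, the main receptors of these libraries, had lower means in G1, and the G0 library of run 4 was the highest for both. Notch2 (ENSMUSG00000027878, chromosome 3 from 98013527 to 98150361, plus strand) had 19.96, 24.2, 25.6 and 45.2 CPM in the G0 libraries of runs 1 to 4 and 18.8, 18.6, 19.5 and 20.3 CPM in the G1 libraries. The G1 libraries lay within a narrow band, with a mean of 19.3 ± 0.759 CPM, against 28.8 ± 11.2 CPM in G0 (SD, n = 4). The log2 fold change within runs was -0.49 ± 0.17, with an adjusted p of 0.194 (edgeR). Without run 4, whose G0 library stands apart by its number of detected genes, it was -0.30 with an adjusted p of 0.742.

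Notch1 (ENSMUSG00000026923, chromosome 2 from 26457903 to 26516663, minus strand) had 21.3, 24.7, 31.7 and 37.2 CPM in G0 and 25.3, 18.5, 22.9 and 17.2 CPM in G1. It was lower in G1 in 3 runs and higher in run 1, and the groups overlapped. The log2 fold change within runs was -0.42 ± 0.18, with an adjusted p of 0.323 (edgeR), and without run 4 it was -0.22 with an adjusted p of 0.849. Leaving out run 1 instead gave -0.65 for Notch1, with an adjusted p of 0.0807, and -0.63 for Notch2, with an adjusted p of 0.0968.

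Notch3 (ENSMUSG00000038146, chromosome 17 from 32120820 to 32166852, minus strand), a receptor best known from pericytes and vascular smooth muscle, was low and varied widely between libraries. It had 0.635, 0.716, 4.03 and 8.22 CPM in the G0 libraries of runs 1 to 4 and 3.47, 1.23, 4.08 and 1.05 CPM in the G1 libraries. The counts behind these values were 7, 8, 57 and 46 in G0 and 49, 16, 40 and 7 in G1. The runs pointed in opposite directions: the ratio of G1 to G0 was 5.47 in run 1 (95% interval 2.46 to 14.3, counting error only) and 0.127 in run 4 (0.0485 to 0.284). Over the 4 runs the log2 fold change was 0.07 ± 0.67, with an adjusted p of 0.983 (edgeR). Its sign turned without run 1 or run 2, so no direction is given for Notch3. Of 9 listed pericyte markers, Notch3 among them, 6 were detected, again with Notch3, and none was called. Without Notch3, the listed markers summed to 199.2 to 359.9 CPM in G0 and 189.2 to 327.0 CPM in G1.

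The vascular members were the lowest expressed ligand and one of the lowest receptors, and they had the most negative fold changes of their families. Notch4 (ENSMUSG00000015468, chromosome 17 from 34564268 to 34588503, plus strand) had 2.72, 6.71, 4.59 and 5.896 CPM in the G0 libraries of runs 1 to 4 and 2.55, 2.61, 2.65 and 2.09 CPM in the G1 libraries. The G1 libraries were nearly level and all below the lowest G0 library, that of run 1, by a small margin. The G0 mean was 4.98 ± 1.74 CPM and the G1 mean 2.48 ± 0.260 CPM (SD, n = 4). The ratio of G1 to G0 was 0.937 in run 1, where its 95% interval included 1, and 0.388, 0.578 and 0.355 in runs 2 to 4, where it did not. The log2 fold change within runs was -0.92 ± 0.34, with an unadjusted p of 0.0122 in edgeR's fit and an adjusted p of 0.233. Between -1.20 and -0.76 over the alternatives tried, it kept its sign and was not called in any.

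Dll4 (ENSMUSG00000027314, chromosome 2 from 119325784 to 119335962, plus strand) had 1.18, 3.94, 4.88 and 4.11 CPM in G0 and 0.142, 1.15, 5.51 and 1.34 CPM in G1. These rest on 13, 44, 69 and 23 counts in G0 and on 2, 15, 54 and 9 counts in G1. Run 3 stood apart from the others: its G1 library was the highest of all 8, and the groups therefore overlapped. The ratio of G1 to G0 was 0.12 in run 1 (95% interval 0.0132 to 0.531, counting error only), 0.292 in run 2 (0.151 to 0.535) and 0.327 in run 4 (0.133 to 0.734), but 1.13 in run 3 (0.777 to 1.64). For Dll4 the log2 fold change within runs was -1.25 ± 0.46, with an adjusted p of 0.233 (edgeR). Without run 3 it was -1.96, with an adjusted p of 0.0544, the smallest of any Notch gene under any alternative tried.

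Set against the other 8 genes run by run, the median of the vascular pair was lower in G1 by a similar amount in 3 runs and not in run 3. In run 1 that median hides a split: Dll4 had a log2 ratio of -2.06, on 2 counts in G1, and Notch4 one of -0.09. The median log2 ratio of Dll4 and Notch4 was -1.07, -1.47, -0.29 and -1.45 in runs 1 to 4. That of the other 8 genes was -0.03, -0.27, -0.28 and -0.62. The difference between the medians was thus -1.04, -1.20, -0.01 and -0.83, with no test because the pair was named with earlier results of these data known. The other 8 genes did not all stay level either, since 4, 6, 5 and 5 of them had a negative ratio in runs 1 to 4.

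Markers of endothelial cells were lower in G1 as well. The list of 18 endothelial genes, among them Pecam1, Cdh5 and Kdr, had 14 members called lower in G1 with the run as a block, against 0.764% of all genes. With phase alone 0 were called, where the share over all genes is also 0%. All 18 had negative fold changes, with a median log2 fold change of -1.73, and 15 were lower in all 4 runs, against 9.44% of all genes. Their summed level was 234.1, 406.9, 467.0 and 444.4 CPM in the G0 libraries of runs 1 to 4 and 52.9, 102.3, 195.2 and 167.8 CPM in the G1 libraries. Their median log2 ratio was -2.21, -1.93, -1.23 and -1.38, below that of the vascular pair in runs 1 to 3 and above it in run 4. In RNA from many cells, fewer cells of a type and less RNA per cell cannot be told apart.

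Divided by the summed endothelial level, both vascular genes had a higher mean in G1, and neither difference passed 0.05 in the permutation test below. Dll4 per 100 CPM of endothelial markers was 0.504, 0.967, 1.04 and 0.925 in the G0 libraries and 0.268, 1.12, 2.82 and 0.801 in the G1 libraries. Its mean log2 difference was 0.13, with p = 0.886 in a two-sided exact permutation test over the 8 libraries (adjusted over both ratios, 0.886). It was higher in G1 in 2 of 4 runs. Notch4 per 100 CPM of endothelial markers was 1.16, 1.65, 0.984 and 1.33 in G0 and 4.82, 2.55, 1.36 and 1.25 in G1. The ratio of Notch4 was higher in G1 in 3 of 4 runs, by 0.76 on the log2 scale, with an exact permutation p of 0.171 (adjusted 0.342). It was 0.34 without run 1 and 1.05 without run 4. Against the geometric mean of the endothelial list it was 0.70 and higher in 3 of 4 runs, with an exact permutation p of 0.2. Against Pecam1 and Cdh5 alone it was 0.90 and higher in 4 of 4 runs, with an exact permutation p of 0.0857. The p-values for these other denominators were not adjusted. The smallest p this design allows is 0.0286. Sign changes within the 4 runs, which cannot reach 0.05, gave exact p-values of 0.75 for Dll4 and 0.25 for Notch4.

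**Figure D4:**
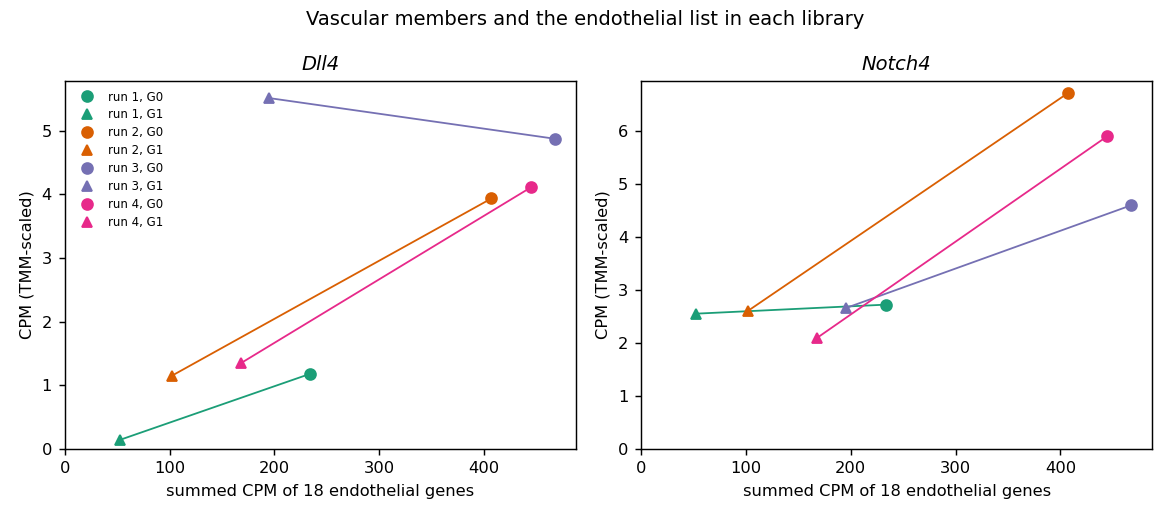
CPM of Dll4 and of Notch4 against the summed CPM of 18 endothelial markers, 1 point per library, with a line joining the G0 and G1 library of each run. Endothelial sums are 234.1 to 467.0 CPM in G0 and 52.9 to 195.2 CPM in G1; Dll4 is lower in G1 in every run but run 3, and the 2 Notch4 points of run 1 are nearly level.

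Markers of other cell types shifted less than the endothelial list. Of 8 detected arterial markers 1, Nrp1, was called lower, and of 6 venous and lymphatic markers 2, Flt4 and Ackr1, were. Of 12 fibroblast markers 4 were called lower, where the share over all genes is 0.764%. The fibroblast list had a median log2 fold change of -0.90, with sums of 261.4 to 1005.8 CPM in G0 and 290.1 to 706.7 CPM in G1. Of its members 7 were lower in all 4 runs, against 9.44% of all genes. In edgeR's fit with the run as a block 10 had an unadjusted p under 0.05, against 1864 of all 15192 genes. None of 5 immune markers was called. Of 9 markers of hormone-sensing luminal cells 1, Ly6a, was called lower, with a list median of -0.57, and of 9 luminal progenitor markers none was called and 8 had positive fold changes, with a median of 0.24. Of the 15 basal markers, Acta2 and Cnn1 were called higher and none lower, and 3 had negative fold changes, with a list median of 0.09. The summed level of the 15 was higher in every G1 library than in any G0 library, as were the levels of Acta2 and of Cnn1. The part of these cell types in the values of the Notch genes was not tested.

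Hes1 (ENSMUSG00000022528, chromosome 16 from 30064384 to 30067796, plus strand), a transcriptional repressor and a classic Notch target that encodes a bHLH protein, lay near level between the phases. It had 37.6, 24.2, 48.0 and 19.5 CPM in the G0 libraries of runs 1 to 4 and 32.7, 25.9, 42.8 and 21.2 CPM in the G1 libraries. The runs differed from each other far more than the phases did, and run 3 was highest in both. Its log2 fold change within runs was -0.05 ± 0.15, with an adjusted p of 0.939 (edgeR).

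Nrarp (ENSMUSG00000078202, chromosome 2 from 25180758 to 25183339, plus strand), an ankyrin-repeat protein that is induced by Notch and feeds back to limit it, had the smallest p of the 10 genes. It had 5.81, 6.35, 7.56 and 4.65 CPM in the G0 libraries of runs 1 to 4 and 2.20, 3.83, 3.88 and 2.54 CPM in the G1 libraries. Every G1 library lay below every G0 library, with a G0 mean of 6.09 ± 1.21 CPM and a G1 mean of 3.11 ± 0.871 CPM (SD, n = 4). The counts were 64, 71, 107 and 26 in G0 and 31, 50, 38 and 17 in G1, and the ratio of G1 to G0 was 0.378, 0.603, 0.513 and 0.547. The 95% interval of the ratio included 1 in run 4 only, where the counts were fewest. For Nrarp the log2 fold change within runs was -0.99 ± 0.29, with an unadjusted p of 0.00242 in edgeR's fit and an adjusted p of 0.109.

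An unnamed gene on the opposite strand, Gm38287 (ENSMUSG00000103217, chromosome 2 from 25180781 to 25183339), shares all of its 2051 exonic bases with Nrarp, which has 531 exonic bases to itself. It is none of the 10 genes and was picked because of this overlap, after its values were seen. Its values were 5.08, 4.74, 6.92 and 3.75 CPM in G0 and 1.28, 2.07, 1.84 and 2.39 CPM in G1, again with no overlap between groups. Its log2 fold change within runs was -1.46 ± 0.35, and it was called, with an adjusted p of 0.036 (edgeR). With phase alone the adjusted p was 0.886. The library kit keeps the strand, but how strand was used in counting is not given in the sources used here, so reads of Nrarp and of Gm38287 cannot be told apart, and the values of both are uncertain for that reason.

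**Figure D5:**
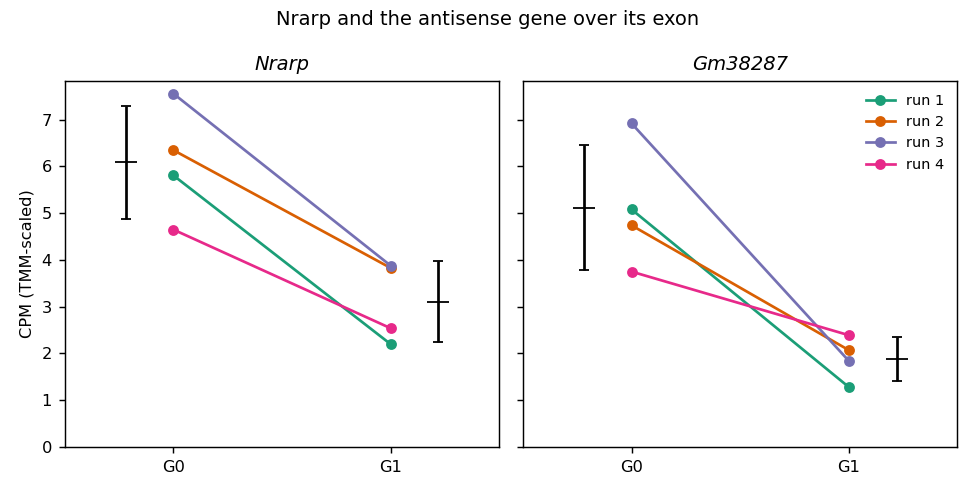
CPM of Nrarp and of Gm38287, the gene on the opposite strand within it, in the G0 and G1 libraries of each run, with lines joining the libraries of a run. Both are lower in G1 in all 4 runs, and in neither do the groups overlap.

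The promoters of Nrarp, Notch4 and Dll4 are shown because these genes had the 3 most negative fold changes. The sequences are from RefSeq on GRCm38.p6, plus strand, 5′ to 3′, and end where the GENCODE gene begins. They lie at chr2:25180508-25180757 for Nrarp, chr17:34564045-34564267 for Notch4 and chr2:119325534-119325783 for Dll4. Capitals mark GGAA, the core bound by ETS factors, a family that includes endothelial regulators such as Erg, or its reverse complement TTCC.
Nrarp: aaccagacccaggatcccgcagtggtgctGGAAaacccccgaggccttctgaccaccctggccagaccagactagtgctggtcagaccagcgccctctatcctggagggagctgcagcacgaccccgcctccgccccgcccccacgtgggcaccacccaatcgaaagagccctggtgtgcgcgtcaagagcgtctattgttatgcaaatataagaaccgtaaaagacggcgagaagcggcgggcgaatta
Notch4: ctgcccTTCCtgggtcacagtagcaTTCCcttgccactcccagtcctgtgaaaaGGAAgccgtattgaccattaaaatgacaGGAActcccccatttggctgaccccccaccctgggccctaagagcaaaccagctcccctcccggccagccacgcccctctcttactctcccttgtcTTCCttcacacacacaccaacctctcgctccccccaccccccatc
Dll4: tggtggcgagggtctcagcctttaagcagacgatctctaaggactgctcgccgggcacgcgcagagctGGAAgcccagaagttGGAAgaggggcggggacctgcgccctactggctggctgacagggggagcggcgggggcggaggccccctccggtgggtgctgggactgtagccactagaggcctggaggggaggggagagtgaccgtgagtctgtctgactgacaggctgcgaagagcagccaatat
The core occurs 1 time in the stretch shown for Nrarp, 5 times for Notch4 and 2 times for Dll4. It is a common motif: 93.4% of 32851 RefSeq promoters hold it in the 250 bases before the start (223 are shown for Notch4), with a median of 3 matches. The motif TGGGAA of RBPJ, the DNA-binding partner of the cleaved receptor, overlaps the ETS core by its last 4 bases and was searched on both strands. It was found in none of these stretches, nor in the promoter of any of the 9 Notch genes with an entry, against 21.6% of all promoters. Hes1, a classic Notch target, had no entry, so its promoter was not searched. The matches counted here are of letters in a window and show no binding.

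Beyond the 10 genes, 69 further genes of the pathway were listed by role, and 59 passed the filter. One of the 69, Nov, had no row under that symbol and was not put to the filter. None was called in either direction in either fit. In edgeR's fit with the run as a block, 5 of the 59 had an unadjusted p under 0.05, against 1864 of all 15192 genes. Their median log2 fold change within runs was -0.08. Of the 59, 5 were lower in all 4 runs and 1 was higher, shares below those of all genes.

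Among the other Hes and Hey repressors, 3 of 9 were detected, 1 with a negative and 2 with a positive fold change. Hey1 averaged 13.5 ± 4.2 CPM in resting cells and 14.7 ± 6.25 CPM in G1 cells, with a log2 fold change of 0.09 ± 0.19 and an adjusted p of 0.903 (edgeR). Heyl and Hes6 had log2 fold changes of -0.51 and 0.26, with adjusted p-values of 0.78 and 0.779. Of the other ligands, Dlk2, a Delta-like protein that lacks the usual receptor-binding domain, had the smallest p. Its mean was 6.67 ± 3.74 CPM among G0 libraries and 11.1 ± 3.60 CPM among G1 libraries, with a log2 fold change of 0.79 ± 0.25 and an adjusted p of 0.15.

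The genes that process and sugar-coat the receptors were mostly slightly negative. Of 10 cleavage genes, 8 had negative fold changes, with a median of -0.13. Furin, which makes the first cut in the receptor, and Psen2, a gamma-secretase subunit, had log2 fold changes of -0.23 and -0.32, with adjusted p-values of 0.463 and 0.478 (edgeR). Of 6 glycosylation genes, 4 were negative. Lfng, a Fringe enzyme that adds sugar to the receptor and tunes its choice of ligand, had 12.4, 11.5, 11.7 and 11.6 CPM in G0 and 10.5, 9.28, 8.99 and 8.51 CPM in G1. Alone of the 59, Lfng had every G1 library below every G0 library, a pattern seen in 1.17% of all genes. Its log2 fold change was -0.34 ± 0.20, with an adjusted p of 0.525. Mfng, another Fringe, had 0.907, 1.25, 4.17 and 3.57 CPM in G0 and 0.709, 0.690, 0.817 and 1.64 CPM in G1, with an adjusted p of 0.309.

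In the nucleus, Ctbp2, a corepressor, was higher in G1 in all 4 runs, with a log2 fold change of 0.28 ± 0.12 and an adjusted p of 0.301 (edgeR). Of 9 genes of the activating complex, 6 were negative, with Crebbp, a histone acetyltransferase, at -0.27 ± 0.14 and an adjusted p of 0.449. Of 11 negative regulators, 10 were negative, with a median of -0.09, and Dtx1, a Deltex ubiquitin ligase, was at -0.84 ± 0.55 with an adjusted p of 0.591.

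The genes whose log2 CPM followed each Notch gene most closely over the 8 libraries were taken from 11720 genes by Pearson's r, as a description. The libraries share runs, phases and depth, and r over 8 points is imprecise. Dll4 was most like Hacl1, at 0.948, and Eng, an endothelial receptor of the TGF-beta family, at 0.946. Notch4 was most like Efnb3, at 0.951, and Pcnt, at 0.943, and none of its closest 5 was on the endothelial list. Notch2 was most like Epb41, at 0.98, and Cdc42bpb, at 0.968, and Vwf, the endothelial clotting protein, had rank 4 at 0.961. Nrarp was most like Syne4, at 0.968, and Gas2, at 0.952, and Jag1 was most like Esyt3, at 0.975. Hes1 was closest to Ube2g1, at 0.979, and to Pthlh, the parathyroid hormone-related peptide, at 0.978. Dll1 was closest to Tpra1, at 0.957, Jag2 to Srebf1, at 0.971, Notch1 to Rexo1, at 0.955, and Notch3 to Bcs1l, at 0.953.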

How the data were processed

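RNA of sorted mouse mammary basal cells was sequenced in 4 G0 and 4 G1 libraries, made with a stranded oligo-dT kit and read as 100-bp pairs, per the labels' protocols. Trimmomatic 0.35, STAR 2.5.2a and mm10 are named in the submitters' processing notes. How reads were counted, with which strand setting and annotation, is not given in the sources used here. Per Ensembl gene the authors deposited whole-number read counts, not normalized. Of 54837 identifiers, 54808 matched a GENCODE M21 symbol.

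Counts were scaled by TMM and filtered with filterByExpr, and G1 was compared with G0 by edgeR 4.0.16 (R 4.3.3, quasi-likelihood, robust, two-sided), with phase alone and with the run as a block. P-values were adjusted by Benjamini-Hochberg over the 15192 genes tested, and a call means an adjusted p under 0.05. The SE of a log2 fold change is its size over the square root of F. Run numbers come from the sample titles. Deviations from group means correlated at 0.668, 0.470, 0.638 and 0.437 between the libraries of runs 1 to 4, and at most 0.0971 between runs, so the numbers pair the samples. The labels do not tell whether runs came from separate animals, and p-values measure only how these samples vary, which may be technical. No library was a copy of another in its group, since counts of the 12 pairs differed by 24.1 to 114.7 times the noise of sampling (chi-square over its degrees of freedom).

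Levels per kb used the union of exons in GENCODE M21, with the longest transcript as the alternative. Intervals of count ratios within a run are 95% conditional exact (Clopper-Pearson) intervals and cover counting error only. The 10 genes and all lists were chosen with earlier results of these data known. The text names all 10, the listed pathway genes with the smallest p in each list (up to 3, of which those with the most to show are printed, a choice made after their values were seen) and the genes most correlated with each (mean log2 CPM of at least 1, up to 5). Alternatives were DESeq2 1.42.0, limma-voom (limma 3.58.1), other scaling and filters, and libraries or runs left out.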

Additional observations from a re-analysis of the deposited data

Results flagged for a closer look

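Of 20 groups of 4 libraries (10 genes in each phase), 2 held a library far from the other 3 by Dixon's ratio of gap to range, above its 95% critical value for 4 samples; chance gives about 1 such group in 20. Dll1 in G0 was highest in run 2, at 449.9 CPM against 331.8 to 341.4 CPM in the other 3 runs, with a ratio of 0.919. Jag1 in G0 was highest in run 1, at 181.3 CPM against 130.6 to 138.2 CPM in the others, with a ratio of 0.849. In both cases the G1 library of the same run was also the highest of its group.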

How the results depend on the processing

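None of the 10 genes was called under any alternative, and of 98 values within runs 92 kept their sign; of 138 with phase alone, 128 did. The number of genes called of all tested moved more. With phase alone it was 0 in edgeR's fit and in each fit without 1 library, 87 with no low-count filter, 34 in DESeq2 and 189 with the replicate block. Within runs it was 189, became 0 with no replicate block and 310 with no low-count filter, and ran from 97 (without run 4) to 274 (without run 1). With phase alone, the log2 fold change of Notch3 turned positive in limma-voom (0.288) and with the replicate block (0.069), and ran from -0.752 to 0.446 with single libraries left out, the last for G0 of run 4. With single libraries left out, that of Hes1 ran from -0.280 to 0.175 (positive without G0 of run 1 or 3 or G1 of run 4), that of Jag2 from -0.083 to 0.152 (negative without G0 of run 4 or G1 of run 1 or 3) and that of Dll1 from -0.008 to 0.162 (negative without G1 of run 2). Within runs, Notch3 was at -0.411 with no replicate block and ran from -0.661 to 0.956 with single runs left out (negative without run 1 or run 2). Hes1 ran from -0.103 to 0.016 (positive without run 1), Dll1 from -0.017 to 0.105 and Jag2 from -0.038 to 0.187 (both negative without run 3). Dll4 per endothelial marker level ran from -0.300 without run 3 (exact permutation p = 0.8) to 0.482 without run 1, and Notch4 per endothelial marker level from 0.335 without run 1 to 1.05 without run 4. The cause of these turns was not tested. Dll4 and Notch3 had no value under a filter of at least 10 counts in all libraries, since each has fewer in some. The replicate block changed no call of the 10 genes. Genes with few counts, Dll4 with 2 to 69 and Notch3 with 7 to 57 per library, are limited by depth, and ratios for them carry wide counting intervals.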
